A study of Solanum lycopersicum with 4 samples.

Results

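The expression of 7 tomato genes of citrate and malate metabolism was examined in fruit RNA of plants carrying CsMYBF1, a citrus MYB transcription factor gene, and of wild-type plants. The 7 genes were taken by their Solyc gene IDs from a table of 34675 genes. They stand for citrate synthase, 2 aconitases, malate dehydrogenase, phosphoenolpyruvate (PEP) carboxylase, PEP carboxykinase and the malate channel ALMT9. These roles come from the ID list, since the table itself names none of them, and the chromosome of each gene was read from its ID. Of the 7 genes, 6 had reads and also passed the filter of a mean of at least 1 RPKM (reads of a gene divided by its length in kilobases and by the library's reads in units of 1000000), and ALMT9 was listed at 0 in all 4 libraries.

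All plants were of the variety Ailsa Craig (Solanum lycopersicum) and received no treatment. The transgenic group held 2 libraries, 1 from line D7 (replicate 1) and 1 from line C2 (replicate 2), so each line was seen once. The wild-type group held 2 libraries. The sources used here do not give the promoter of the transgene, the ripening stage of the fruit or the number of plants behind a library, and the level of the citrus gene was not measured by this table of tomato genes. The fruit label was not checked against marker genes, because IDs in the table are not paired with names. In whole fruit, fewer cells that express a gene and less RNA of it per cell cannot be told apart.

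Citrate and malate are the main acids of ripe tomato fruit and are stored in the vacuole. Citrate synthase joins acetyl-CoA and oxaloacetate to form citrate, and aconitase turns citrate into isocitrate. Malate dehydrogenase interconverts malate and oxaloacetate. PEP carboxylase feeds carbon into this pool by making oxaloacetate from PEP, and PEP carboxykinase runs the other way, from oxaloacetate to PEP, a step used when acids are turned into sugar. ALMT9 carries malate across the vacuolar membrane.

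Both aconitases and PEP carboxykinase rose in the transgenic libraries as deposited, to 2.41-fold to 2.79-fold of the wild-type mean RPKM, but their fold changes were close to 0, and that of the aconitase Solyc07g052350.2 below 0, once each library's trend with gene length was removed (the length correction). None of the 7 genes passed the test as lower. The groups were compared with limma on log2(RPKM + 1) over 16876 genes, with Benjamini-Hochberg adjustment and a threshold of 0.05. Of the 6 genes tested, 3 were called higher, where 18.8% of all genes tested were called higher, and 0 were called lower, where 2.09% of all genes were. With limma's unadjusted p below 0.05, 4 of the 6 were higher and 0 lower, where 34.1% of all genes tested were higher and 7.35% lower. Voom on recovered reads also called 0 lower, where it called 1.97% of all genes lower. In 5 of the 6 genes both transgenic libraries lay above both wild-type libraries, as for 50.7% of all genes tested, and in 1 gene, malate dehydrogenase, both lay below, as for 17.4%. The median log2 fold change of the 6 genes was 1.30, against 0.49 for all genes tested. Genes of similar length were nearer to it: the medians of the length classes of the 6 genes (given below) had a median of 1.26.

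**Figure D1:**
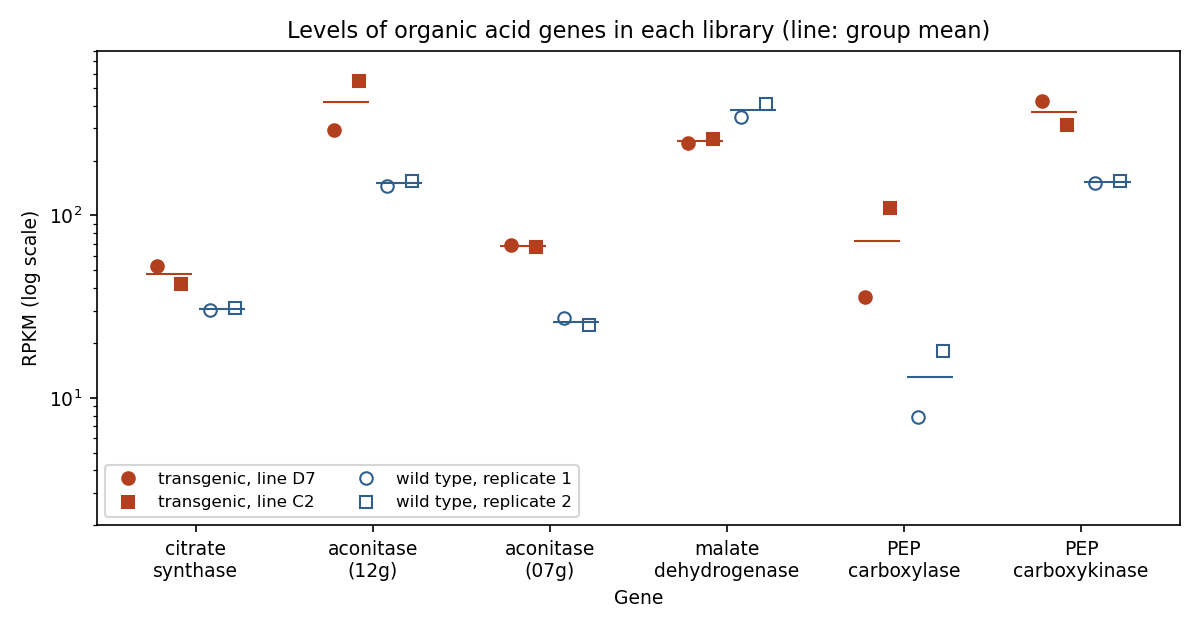
RPKM (log scale) of the 6 organic acid genes with reads in the 2 transgenic libraries (filled symbols) and the 2 wild-type libraries (open symbols), with a line at each group mean. Malate dehydrogenase alone is lower in both transgenic libraries, PEP carboxylase spreads from 35.8 to 109 RPKM between the lines, and the aconitase labelled 12g (Solyc12g005860.1) reaches 545 RPKM in line C2.

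Citrate synthase (Solyc01g073740.2, chromosome 1) was measured at 53.0 RPKM in D7 and 41.9 RPKM in C2 fruit, with 30.3 and 31.0 RPKM in wild-type fruit. Both lines lay above wild type as deposited, line D7 by 1.73-fold and line C2 by 1.37-fold over the wild-type mean, whereas the log2 fold change was -0.020 (standard error 0.25) under median-of-ratios scaling, which shifts all genes by a common amount per library, and -0.27 (standard error 0.25) with the length correction. At a log2 fold change of 0.61 (standard error 0.28) the gene missed the threshold (limma, adjusted p = 0.16).

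The aconitases stood at very different levels. Solyc12g005860.1 (chromosome 12) reached 293 RPKM in D7 fruit and 545 RPKM in C2 fruit, while the wild-type libraries held 145 and 155 RPKM. Its mean was 419 ± 178 RPKM in transgenic and 150 ± 6.82 RPKM in wild-type fruit (SD, n = 2 each). It rose by a log2 fold change of 1.41 as deposited (standard error 0.37, limma adjusted p = 0.046), against 0.77 with median-of-ratios scaling and 0.029 with the length correction. The spread of the transgenic group is the gap between the lines, since line C2 was 1.86-fold above line D7. A difference between the lines larger than this was found for 12.6% of all genes tested. Solyc07g052350.2 (chromosome 7) was measured at 68.7 RPKM in D7 and 67.1 RPKM in C2 fruit, with 27.4 and 24.9 RPKM in wild-type fruit. Here the lines were nearly equal and well above both wild-type libraries, and the gene rose by a log2 fold change of 1.34 as deposited (standard error 0.27, limma adjusted p = 0.032), against -0.18 with the length correction.

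Malate dehydrogenase (Solyc07g062650.2, chromosome 7) reached 249 RPKM in D7 fruit and 262 RPKM in C2 fruit, while the wild-type libraries held 346 and 410 RPKM. Both lines lay below both wild-type libraries, and the transgenic mean was 0.68 of the wild-type mean. At a log2 fold change of -0.56 (standard error 0.27) it missed the threshold (limma, adjusted p = 0.17). It lay 1.05 below the median of all genes tested.

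PEP carboxylase (Solyc07g062530.2, chromosome 7) varied most within both groups. D7 fruit held 35.8 RPKM of it and C2 fruit 109 RPKM, while the wild-type libraries held 7.86 and 18.1 RPKM. Line D7 was 2.76-fold and line C2 8.42-fold above the wild-type mean, and the groups did not overlap. The log2 fold change of 2.29 (standard error 0.62) was the highest of the 6 and missed the threshold (limma, adjusted p = 0.0505). The lines differed by 3.05-fold and the wild-type libraries by 2.30-fold, and 3.6% and 12% of all genes tested differed more within the same pair of libraries. Between it and malate dehydrogenase, 11 other gene IDs of chromosome 7 are listed.

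PEP carboxykinase (Solyc04g076880.2, chromosome 4) was measured at 422 RPKM in D7 and 315 RPKM in C2 fruit, with 151 and 155 RPKM in wild-type fruit. The wild-type libraries were almost equal and above their mean stood line D7 by 2.76-fold and line C2 by 2.06-fold. The gene rose by a log2 fold change of 1.25 as deposited (standard error 0.29, limma adjusted p = 0.037), against 0.61 with median-of-ratios scaling and 0.076 with the length correction.

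ALMT9 (Solyc06g072910.2, chromosome 6) was among the 10253 genes of the table listed at 0 in every library. Its length could not be recovered without reads. As a limit of counting alone, a count of 0 allows up to 3 reads, which in a gene of 1 kilobase would be 0.197 RPKM in line D7, 0.232 RPKM in line C2, and 0.14 and 0.229 RPKM in the wild-type libraries. That limit has no meaning if the annotation or the counting left out reads of this gene, which was not tested. No fold change is given.

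The depth recovered from the steps of the RPKM values was 12916160 to 15227619 reads in the transgenic and 13101910 to 21403774 reads in the wild-type libraries. The 6 genes were read 565 to 20750 times per library. For the lowest, PEP carboxylase in wild-type replicate 1, the exact 95% Poisson interval was 519 to 614 reads, which covers counting error only. The gaps between the groups given above are wider than counting error. Aconitases, malate dehydrogenases, PEP carboxylases and malate channels of the ALMT type belong to gene families, and the sources used here do not say how reads shared with a close copy were counted.

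The 3 calls depended on the settings and on single libraries. With all 4 libraries and the values as deposited, 0 of the 6 genes were called higher with no filter on low values (limma adjusted p of the 3 genes from 0.061 to 0.078, with 0.045% of all genes called higher) and with the replicate block (0.066 to 0.077, with 0.142% called higher). Without line D7, line C2 or wild-type replicate 2, 0 of the 6 genes were called higher, and without wild-type replicate 1 only the aconitase Solyc07g052350.2 was (limma adjusted p = 0.040). Over the whole table the first 3 of these fits called at most 11 genes higher, whereas the fit without wild-type replicate 1 called 3365 higher (19.9%) and 451 lower. With an unadjusted limma p below 0.05, 4 of the 6 genes were higher without line D7, 2 without line C2 and 4 without wild-type replicate 2, where 21.4%, 20.7% and 27.1% of all genes were higher.

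Fold changes in these libraries followed gene length, and all 6 genes were longer than the median of 1241 bases of all genes tested, with recovered lengths of 1556 to 3545 bases. Among genes from 2500 to under 4000 bases the median log2 fold change was 1.44, and 57.8% of these 1508 genes were called higher. Both aconitases belong to this class, at 2946 and 3545 bases, and their log2 fold changes lay 0.032 and 0.096 below that median, a difference smaller than their standard errors. PEP carboxylase, at 3357 bases, lay 0.85 above the same median, and 37 genes of the class (2.45%) had a higher log2 fold change. PEP carboxykinase (2375 bases) and citrate synthase (1900 bases) belong to the class of 1800 to under 2500 bases, whose median was 1.07. PEP carboxykinase lay 0.18 above that median and citrate synthase 0.47 below it. Of the 2594 genes of this class, 33% were called higher. Malate dehydrogenase (1556 bases) lay 1.10 below the median of 0.54 of the genes of 1200 to under 1800 bases, and 92.6% of that class had a higher log2 fold change.

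**Figure D2:**
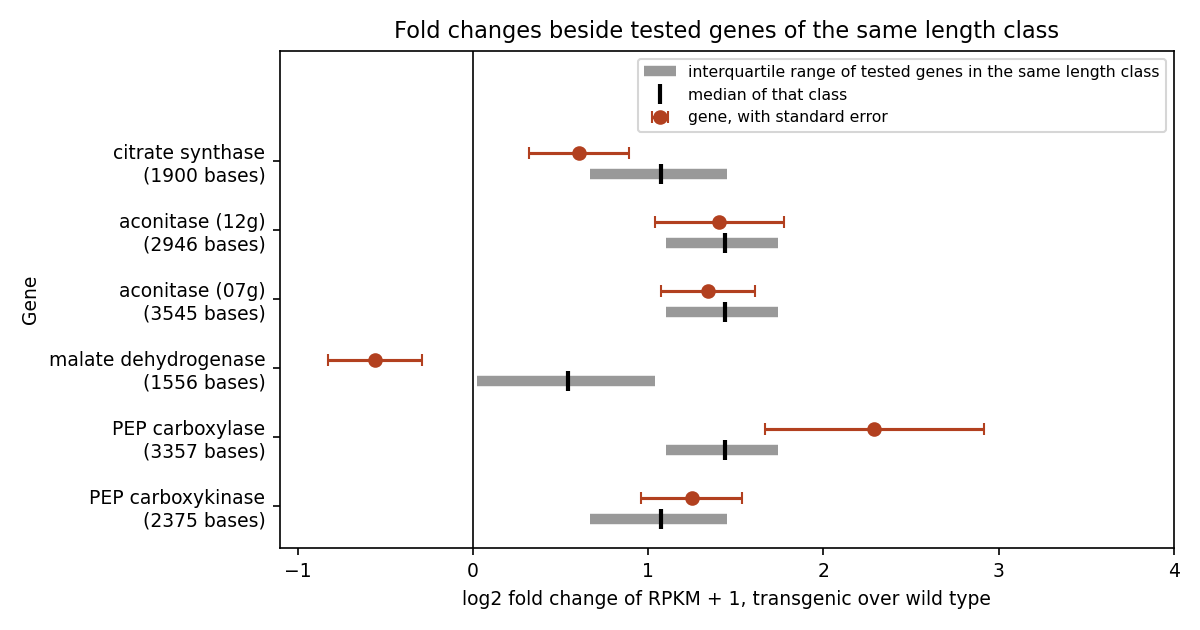
Log2 fold change of RPKM + 1, transgenic over wild type, for each organic acid gene (points, bars are standard errors) beside the median and the interquartile range of all tested genes of its length class (grey bars). The aconitases and PEP carboxykinase lie within the interquartile range of their classes, PEP carboxylase lies above it, and citrate synthase and malate dehydrogenase lie below it.

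Scaling by the median of ratios brought the median of all genes tested, 0.49 on the log2 scale, to -0.045, and removing each library's trend with gene length brought it to -0.034. Malate dehydrogenase stayed lower in the transgenic libraries under both, with log2 fold changes of -1.20 (standard error 0.29, limma adjusted p = 0.058) and -1.16 (standard error 0.26, limma adjusted p = 0.13). PEP carboxylase stayed higher under both, at 1.68 (standard error 0.72, limma adjusted p = 0.15) and 0.81 (standard error 0.71, limma adjusted p = 0.52). With the length trend removed, the aconitases were at 0.029 for Solyc12g005860.1 and -0.18 for Solyc07g052350.2, and PEP carboxykinase was at 0.076, each within its standard error of 0.23 to 0.38 from 0. In these 2 settings 0 of the 6 genes passed the adjusted threshold in limma. With an unadjusted limma p below 0.05, the scaling left 1 of the 6 genes higher (Solyc07g052350.2) and 1 lower (malate dehydrogenase), where 17.7% of all genes were higher and 21% lower. The length correction left 0 higher and 1 lower (malate dehydrogenase), where 12.3% of all genes were higher and 11.7% lower, so these counts are near the shares of all genes. Over all genes, the scaling called 2.95% higher and 5.49% lower by adjusted p, so that more genes were called lower than higher.

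**Figure D3:**
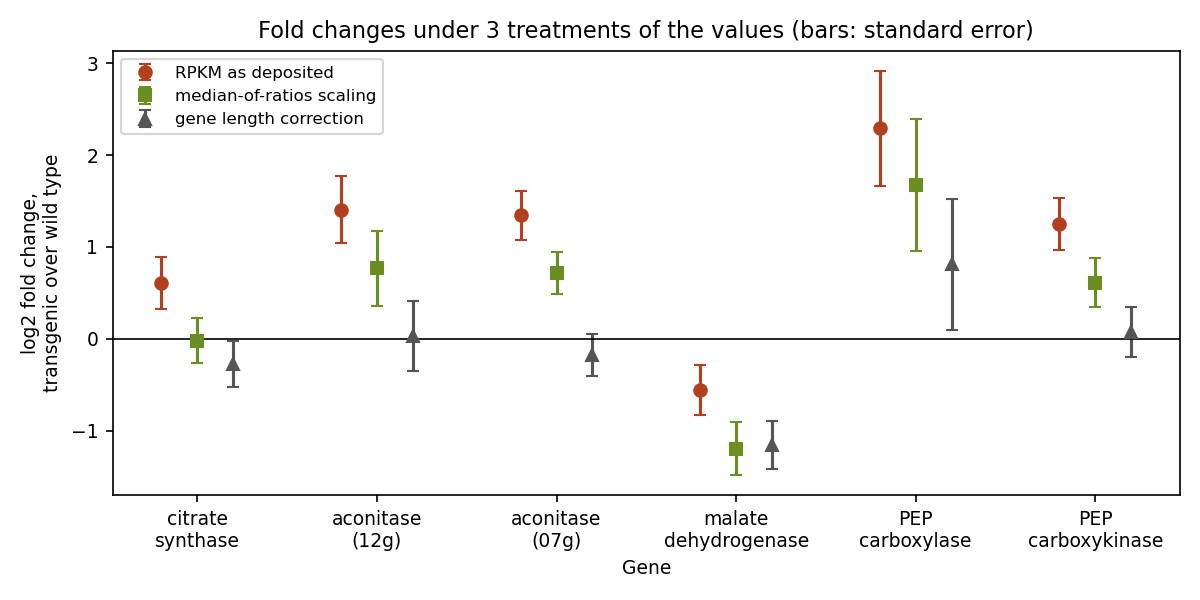
Log2 fold change, transgenic over wild type, of each gene with RPKM as deposited, with median-of-ratios scaling and with the trend with gene length removed (bars are standard errors). Malate dehydrogenase lies below 0 and PEP carboxylase above 0 in all 3, citrate synthase lies slightly below 0 under both alternatives, and the aconitase labelled 07g (Solyc07g052350.2) crosses 0 with the length correction.

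The order of the genes by RPKM, which is per length, also differed between the groups. In both wild-type libraries malate dehydrogenase came first. PEP carboxykinase and the aconitase Solyc12g005860.1 followed at levels that overlapped (151 and 155 against 145 and 155 RPKM), then came citrate synthase, the aconitase Solyc07g052350.2 and PEP carboxylase, none of which overlapped. In both transgenic lines malate dehydrogenase came behind PEP carboxykinase and the aconitase Solyc12g005860.1. PEP carboxykinase led in line D7 and the aconitase led in line C2, and over both lines their levels overlapped. PEP carboxylase was last in line D7 and above 1 aconitase and citrate synthase in line C2, so that its range took in the levels of both. Malate dehydrogenase made up 22.2% of the summed RPKM of the 6 genes in line D7 and 19.5% in line C2, against 48.9% and 51.6% in the wild-type libraries. The sum itself came to 1122 RPKM in D7 and 1341 RPKM in C2 fruit, and to 708 and 794 RPKM in wild-type fruit. Order, shares and sum are of RPKM as deposited and still carry the trend with gene length. Malate dehydrogenase, at 1556 bases, was the shortest of the 6 genes. With the length correction its log2 fold change was -1.16, against 0.029 for Solyc12g005860.1 and 0.076 for PEP carboxykinase. The order was not formed again with that correction.

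Ratios of 2 genes within a library do not depend on how the library is scaled, though they still carry any trend with gene length. With 2 libraries against 2, the exact two-sided permutation test cannot give a p below 0.33, so none of the 4 ratios can pass a threshold of 0.05, and adjusted over the 4 ratios the exact permutation p was 0.67 to 1. Malate dehydrogenase had 4.70 times the RPKM of citrate synthase in line D7 and 6.25 times in line C2, against 11.4 and 13.2 times in the wild-type libraries. The groups did not overlap, and the mean log2 ratio was 1.18 lower in transgenic fruit (exact permutation p = 0.33), or 0.88 lower with the length correction. Both aconitases together had 6.83 times the RPKM of citrate synthase in line D7 and 14.6 times in line C2, against 5.70 and 5.81 times in the wild-type libraries. Most of that gap came from line C2, and with the length correction the groups overlapped, with 5.75 times in line D7 and 11.7 times in line C2 against 6.47 and 7.04 times in the wild-type libraries.

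PEP carboxykinase had 11.8 times the RPKM of PEP carboxylase in line D7 and 2.88 times in line C2, against 19.2 and 8.55 times in the wild-type libraries. Line D7 lay between the wild-type libraries, so the groups overlapped (exact permutation p = 0.667). The aconitase Solyc12g005860.1 had 4.27 times the RPKM of Solyc07g052350.2 in line D7 and 8.13 times in line C2, against 5.31 and 6.22 times in the wild-type libraries. The lines lay on opposite sides of wild type, and the group means were nearly equal, at log2 ratios of 2.56 ± 0.66 in transgenic and 2.52 ± 0.16 in wild-type fruit (SD, n = 2 each, exact permutation p = 1). A ratio with ALMT9 could not be formed.

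**Figure D4:**
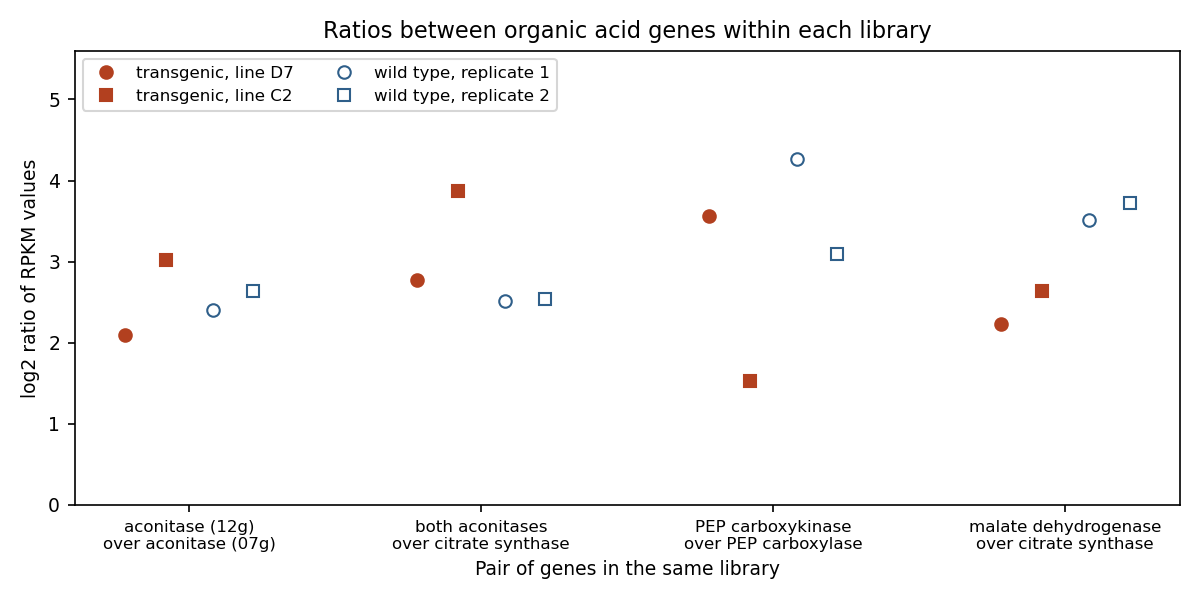
Log2 ratio of the RPKM values of 2 genes, or of both aconitases and citrate synthase, within each of the 2 transgenic (filled) and 2 wild-type (open) libraries. Malate dehydrogenase over citrate synthase is lower in both transgenic libraries, while in the ratio of the aconitases line D7 lies below and line C2 above both wild-type libraries.

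The genes whose 4 values ran most like those of the gene with the highest and of the gene with the lowest log2 fold change were looked up by Euclidean distance on centred log2(RPKM + 1). For PEP carboxylase this was Solyc09g007900.2 (chromosome 9), at a distance of 0.15. It reached 26.3 RPKM in D7 fruit and 75.6 RPKM in C2 fruit, while the wild-type libraries held 4.71 and 12.8 RPKM. Line C2 lay above line D7 and wild-type replicate 2 above replicate 1, as in PEP carboxylase. That likeness comes with the choice by distance on these same values. For malate dehydrogenase it was Solyc09g066490.2 (chromosome 9), at a distance of 0.07. It was measured at 133 RPKM in D7 and 132 RPKM in C2 fruit, with 184 and 213 RPKM in wild-type fruit. Within a distance of 1/2 on this scale lay 1391 genes for malate dehydrogenase and 5 for PEP carboxylase. These counts cannot be compared, since the log2 fold changes were -0.56 and 2.29. A fixed distance takes in more genes around a small change, so the counts do not show how common either pattern was.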

How the data were processed

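RNA of 2 transgenic and 2 wild-type fruit samples was sequenced after oligo(dT) enrichment, per the labels' protocols. The authors deposited RPKM values in 1 table, and the submitters' processing notes list HTSeq. The sources used here do not give the aligner, genome build, annotation or strand setting. Columns were matched to samples by name and groups taken from the sample descriptions. No source states that replicates are separate plants. The p-values thus cover the spread of these samples only. Between the wild-type libraries that spread may be technical, while between the transgenic libraries it also holds any difference between the lines. The 7 genes, the tests and most alternatives were chosen with earlier results of these data known.

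Library totals, gene lengths (60 to 20000 bases) and reads were recovered from the RPKM steps with a tolerance of 0.001 reads, for 24420 of 24422 genes above 0. A recovered length is the smallest that gives whole reads. Transgenic and wild-type libraries were compared in limma 3.58.1 under R 4.3.3 (eBayes with trend). Values were log2(RPKM + 1), a scale that understates changes of low genes, and genes needed a mean of at least 1 RPKM. Recovery and fit were tested on simulated data. The simulation for the fit held no trend with gene length and no difference between lines, so it does not show how the fit behaves under these. Alternatives were a pseudocount of 0.1, no filter, a mean of at least 5 RPKM, median-of-ratios scaling, a loess length correction (span 0.3), voom on the recovered reads, ratios from recovered reads with 1 read added, each library left out in turn and a block by replicate number. All 7 genes were to be named, with the nearest gene in pattern for the highest and the lowest log2 fold change. Other genes of the pathway were to be counted from gene descriptions, but 0 Solyc IDs matched the RefSeq gene table (assembly SLM_r2.1), so none are named and no sequence is shown.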

Additional observations from a re-analysis of the deposited data

Results flagged for a closer look

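The ratio of the aconitases (Solyc12g005860.1 over Solyc07g052350.2) moved in opposite directions in the transgenic lines. The log2 ratio lay 0.50 above the wild-type mean in line C2 and -0.43 from it in line D7, and both values were outside the range of the wild-type libraries. With 1 library per line the difference between the lines was not tested.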

How the results depend on the processing

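The 3 genes called higher became 0 with no filter, median-of-ratios scaling, the gene length correction and the replicate block, and 0 to 1 when a library was left out, while 4 were called with a minimum of 5 RPKM (23.1% of all genes called higher) and with voom (20.9%). With no filter and with the block, 4 genes were higher by unadjusted p below 0.05, as were 26.2% and 29.3% of all genes. The cause was not tested. Over all genes, 11 were called higher with no filter, 18 with the length correction and 24 with the block (0 lower each), while median-of-ratios scaling gave 498 higher and 926 lower. For the aconitases Solyc12g005860.1 and Solyc07g052350.2 and for PEP carboxykinase, the log2 fold changes stayed at 1.41, 1.34 and 1.25 with no filter and with the block. They were 0.77, 0.72 and 0.61 with median-of-ratios scaling and 0.029, -0.18 and 0.076 with the length correction. Leaving out a library gave 0.96 to 1.85, 1.28 to 1.41 and 1.04 to 1.46. PEP carboxylase ranged most in those fits, from 1.50 without line C2 to 3.08 without line D7, and passed the test with a minimum of 5 RPKM (2.29), voom (2.41) and the crossed block (2.29). Citrate synthase was at -0.020 with median-of-ratios scaling and at -0.27 with the length correction. The median log2 fold change of the 6 genes, 1.30, moved to 0.66 and -0.073 in these settings and ranged from 1.16 to 1.30 without a library. The log2 ratio of malate dehydrogenase over citrate synthase moved from -1.18 to -0.88 with the length correction. The difference in the log2 aconitase ratio, 0.036, ranged from -0.43 to 0.50 without a library. Malate dehydrogenase stayed below 0 in every setting, from -1.20 to -0.44, and was never called.

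The labels tie no replicate number to a plant or day. Across genes, libraries with the same number had deviations from their group means that correlated at -0.16. The crossed block, added after seeing the data, called 4 of the 6 genes higher. Over the table it called 4071 genes higher (24.1%) and 816 lower (4.84%). The ratio alternative with 1 read added kept the direction of all 4 ratios. At these depths counting error is small beside the gaps between groups, but 2 libraries a group measure the spread poorly.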
